A study of Homo sapiens with 24 samples.

Results

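The difference between 2 multiple myeloma cell lines in their early RNA response to YKL-5-124 (YKL below), the compound given in a series whose title names inhibition of the kinase CDK7, was measured in 12 of the 24 libraries of the series. The libraries formed 4 of its 8 groups, each of 3 replicates: H929 cells with the vehicle DMSO for 6 h, H929 cells with YKL for 6 h, MM1S cells with DMSO for 6 h and MM1S cells with YKL for 6 h. The labels gave a dose of 83 nM for H929 and 98 nM for MM1S, on the YKL and the DMSO labels alike, so line and dose cannot be told apart. H929 and MM1S are established human myeloma lines, which are transformed plasma cells. Each line stands for 1 patient's tumour, and neither group has an untransformed counterpart here. For every gene, the line difference was the change in H929 (YKL minus DMSO) minus the change in MM1S, on the scale of log2(FPKM + 1). A positive value means that the response was higher in H929, through a larger rise or a smaller fall. Each value was computed from the FPKM as deposited and again after median-of-ratios rescaling, which divides each library by the median ratio of its genes to a common reference. The first scale keeps a change of the whole library in every gene, and the other removes it. The labels did not say whether the replicates were separate cultures. The p-values therefore measure only how far these samples spread, which may be technical spread.

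CDK7 is the kinase of the general transcription factor TFIIH. It phosphorylates the tail of RNA polymerase II as transcription starts, and it also activates the CDKs that drive the cell cycle. Myeloma cells depend on short-lived transcripts, such as those of MCL1 and of plasma cell regulators, whose RNA levels follow transcription within hours. Genes induced by p53, genes of DNA replication and heat shock genes are further groups whose transcripts can change quickly when transcription or the cell cycle is disturbed.

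The labelled cell type was checked against its markers. Of 10 plasma cell markers, 9 were measured, and their summed FPKM ran from 6810 to 8620 in H929 with DMSO and from 3130 to 4310 in MM1S with DMSO. The filter on low values was passed by 2 of 10 T cell markers, 3 of 10 monocyte markers and 3 of 10 markers of epithelial cells or fibroblasts. Summed T cell markers did not exceed 4.03 FPKM in any 6 h library. Summed monocyte markers ran from 22.6 to 32.6 FPKM in H929 and from 0.727 to 6.21 in MM1S. Summed epithelial and fibroblast markers ran from 266 to 373 FPKM in H929 and from 11.7 to 44.2 in MM1S, and no member of these 3 lists was called for the line difference. The part of these markers in the results was not tested. With DMSO, WHSC1, which is joined to the immunoglobulin locus in H929 cells, had 81.3 ± 15.5 FPKM in that line and 22.9 ± 1.53 in MM1S (SD, n = 3). CCND2, a cyclin high in MM1S, stood at 2.11 ± 0.459 and 79.6 ± 6.3. The 4 measured H929 line markers, WHSC1 among them, summed to 150 to 198 FPKM in H929 with DMSO and 46.2 to 59.1 in MM1S. The 5 MM1S line markers, CCND2 among them, summed to 4550 to 6490 and 5950 to 6820. Those ranges overlapped, so the summed MM1S markers did not separate the lines.

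The scale of the whole library was compared as well. The log2 median-of-ratios factor was 0.68, 1.02 and 0.95 in the H929 DMSO libraries and 0.36, 0.86 and 0.84 in the H929 YKL libraries. It was 0.28, 0.29 and 0.04 in the MM1S DMSO libraries and -0.14, -0.35 and -0.31 in the MM1S YKL libraries. The groups overlapped in H929 and did not overlap in MM1S. The mean changed by -0.20 in H929 (0.873-fold, exact permutation p = 0.5, two-sided) and by -0.47 in MM1S (0.722-fold, exact permutation p = 0.1, the smallest that 3 against 3 allows). The line difference of the library scale was 0.27, with an exact permutation p of 0.36 over 400 arrangements within lines. Summed gene FPKM over summed ERCC spike-in FPKM, another reading of the same scale, changed by -0.22 in H929 (exact permutation p = 0.4) and by -0.29 in MM1S (exact permutation p = 0.2) on the log2 scale, with groups that overlapped in both lines. Its line difference was 0.06 (exact permutation p = 0.85). Fewer cells, less RNA per cell and the authors' own scaling, which is not known here, cannot be told apart as sources of this scale in these bulk samples. In MM1S YKL replicate 2 the spike-in transcripts scattered with an SD of 0.964 on the log2 scale, against 0.227 to 0.329 in the other 11 libraries of 6 h. The counts without that library are given below.

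**Figure D1:**
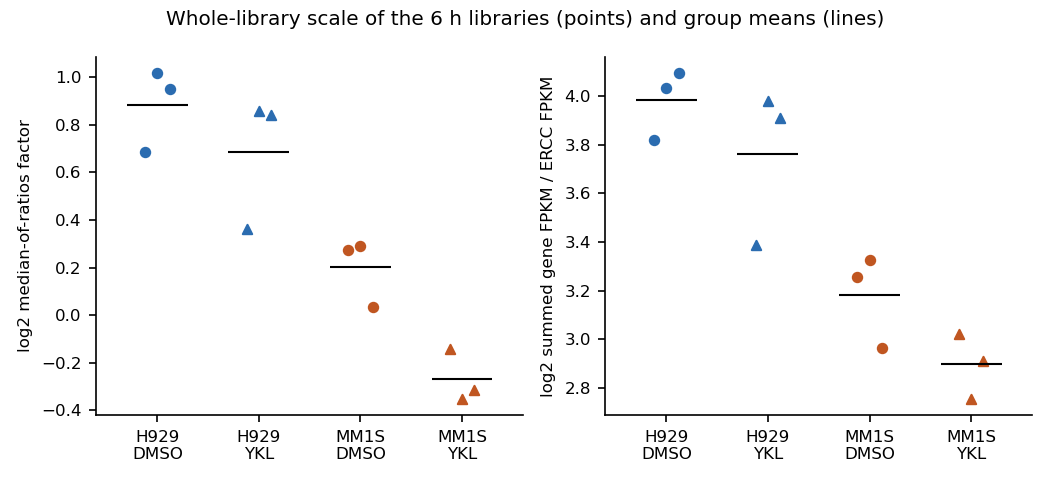
Log2 median-of-ratios factor (left axis panel) and log2 of summed gene FPKM over summed ERCC FPKM (right) in each 6 h library, with lines at the group means. The MM1S YKL points lie below all MM1S DMSO points on the left, whereas the H929 groups overlap.

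The median line difference over the 12418 genes tested was 0.24 as deposited and 0.03 after rescaling. Taken gene by gene, rescaling shifted the line difference by a median of -0.24. Most genes called in 1 line changed in the same direction in the other. Of the genes called in H929 after rescaling, 88.8% had the same sign in MM1S, and 45.5% were called there with the same sign, which was 27.3% of the genes called in MM1S. As deposited, 80.9% of the genes called in H929 had the same sign in MM1S. Called there with the same sign were 41.9%, which was 8.38% of the genes called in MM1S. The genes called in opposite directions were only 7 after rescaling and 0 as deposited. The share of all genes with the same sign in both lines was not computed. Across genes, the change in H929 and the change in MM1S had a Pearson r of 0.429 and a Spearman rho of 0.423 after rescaling. Genes are not independent replicates, and the libraries of a line share their scale, so this is a description.

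In limma's test with Benjamini-Hochberg adjustment at 0.05, 21 genes (0.169%) were called for the line difference as deposited, 17 higher in H929 (0.137%) and 4 lower (0.0322%). After rescaling, 141 genes (1.14%) were called, 90 higher in H929 (0.725%) and 51 lower (0.411%). The sets shared 18 genes, all with the same sign, and all 141 had that sign as deposited too. An unadjusted p under 0.05 was reached by 1283 genes as deposited and 1686 after rescaling. The deposited count rested on single libraries. It was 0 without H929 YKL replicate 2 or without MM1S DMSO replicate 1, where 945 and 1016 genes had an unadjusted p under 0.05, and 72 without H929 YKL replicate 1. After rescaling, the count without any 1 library of 6 h ran from 62 to 136. Without MM1S YKL replicate 2, whose spike-ins scattered, 19 genes were called as deposited and 112 after rescaling. The median standard error of a line difference was 0.39 as deposited and 0.27 after rescaling. The smallest called difference was 1.16 and 0.55, and 678 and 379 genes with a difference of at least 1 in size were not called. The design could therefore not show most differences below those sizes.

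**Figure D2:**
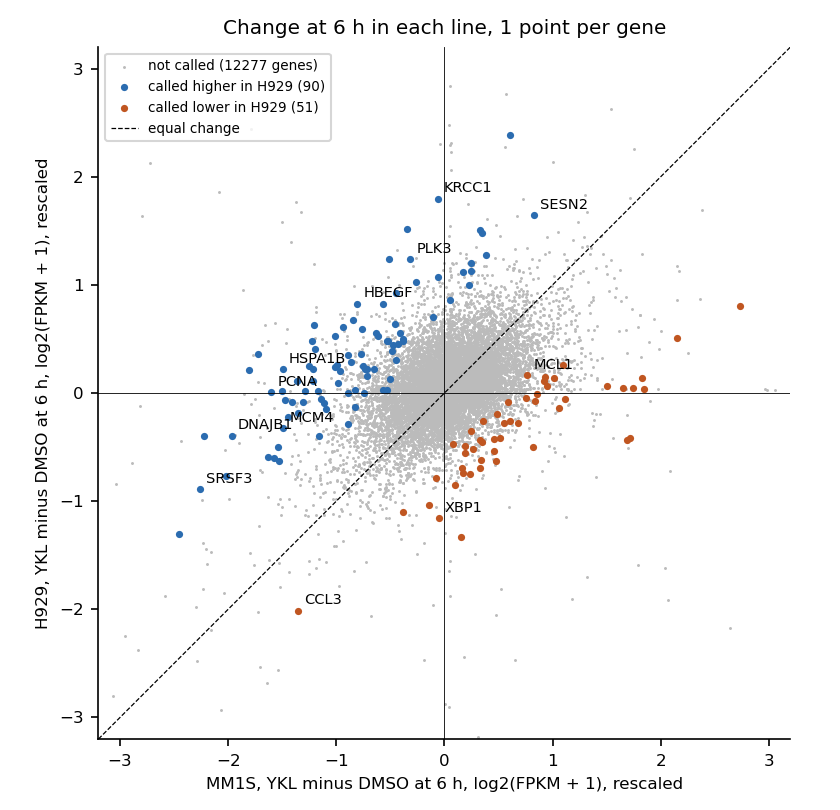
Change at 6 h in MM1S (x axis) and H929 (y axis), rescaled log2(FPKM + 1), 1 point per gene; 57 genes, SCARNA23 and SNORA13 among them, lie beyond the axes. The 90 genes called higher in H929 lie above the dashed line of equal change, many of them left of 0 on the x axis, and the 51 called lower lie below it.

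The called genes were sorted by which line itself passed the test against DMSO. Alone means here that the other line did not pass, which does not show that it was unchanged. As deposited, 1.03% of all genes were called up and 1.16% down in H929, and 0.926% up and 10.0% down in MM1S. Of the 17 genes higher in H929, 11 fell in MM1S alone and 6 rose in H929 alone. Of the 4 genes lower in H929, 3 rose in MM1S alone and 1 fell in H929 alone. After rescaling, 5.1% of all genes were called up and 4.19% down in H929, and 8.25% up and 7.22% down in MM1S. Of the 90 genes higher in H929, 55 fell in MM1S alone, 21 rose in H929 alone, 9 changed in the same direction in both lines by unequal amounts, and 5 rose in H929 and fell in MM1S. Of the 51 genes lower in H929, 28 rose in MM1S alone, 18 fell in H929 alone, 3 changed alike in direction and 2 went opposite ways. The changes in the lines had opposite signs in 42 of the 55, 11 of the 21, 16 of the 28 and 15 of the 18. In the rest of these genes, the line that did not pass had a change of the same sign.

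Of the 17 genes higher in H929 as deposited, 12 were called on both scales and reached 5 FPKM in a group, and the 10 with the largest differences are described. The other 2 were CAV2 (1.41) and TEX22 (1.38). HSPA1B, an inducible HSP70 chaperone, is described below with the other heat shock genes, and PLK3 with the p53 targets. KRCC1 stood at 1.8, 2.18 and 2.5 FPKM in H929 with DMSO and at 7.33, 12.2 and 12.9 with YKL. In MM1S it stood at 17, 10.5 and 14.1 with DMSO and at 11.5, 12.9 and 5.5 with YKL. The H929 groups did not overlap and the MM1S groups did. Its line difference was 2.36 (SE 0.46, limma adjusted p = 0.0314) as deposited and 1.86 (SE 0.43, limma adjusted p = 0.0377) after rescaling.

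FAM89A and PDCL3 followed the other pattern, with a level held in H929 and lost in MM1S. FAM89A stood at 4.22, 6.66 and 5.1 FPKM in MM1S with DMSO and at 0.103, 0.645 and 1.08 with YKL, while H929 stood at 5.38 ± 1.29 and 6.73 ± 2.69. PDCL3, a phosducin-like protein that works with the chaperonin, stood at 12.2, 6.73 and 10.8 FPKM in MM1S with DMSO and at 2.01, 2.32 and 0.416 with YKL. Neither gene's MM1S groups overlapped. Line differences were 2.24 and 2.18 as deposited and 2.09 and 2.02 after rescaling. ARL6IP6 fell in MM1S from 5.08 ± 1.38 to 1.5 ± 0.48 FPKM as deposited and stood at 3.25 ± 0.83 and 5.19 ± 0.918 in H929, a line difference of 1.82 (SE 0.37).

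Some line differences came from a gene that was near the lowest values in H929 in either condition, so that it had little room to fall there. CDCA7, a MYC and E2F responsive gene, stood at 10.4, 9.99 and 9.01 FPKM in MM1S with DMSO and at 1.96, 2.5 and 2.79 with YKL. All 6 H929 libraries lay between 0.107 and 0.188. CBLN2 went from 6.57 ± 0.984 to 1.15 ± 0.436 FPKM in MM1S and stood at 0.140 ± 0.0194 and 0.147 ± 0.0165 in H929. PVRIG, an immune checkpoint receptor gene, went from 23.9 ± 2.13 to 8.92 ± 0.91 in MM1S and stood at 0.174 ± 0.0766 and 0.623 ± 0.415 in H929. Library minima were 0.0679 to 0.137 FPKM at 6 h. In all, 4 of the 17 genes were under 1 FPKM in both H929 groups, and 4 others were under 1 FPKM in both MM1S groups. The 4 genes lower in H929 were SNORA13, GUCA1C, CMTM2 and LOC101927354, of which none met the rule for named genes. GUCA1C and CMTM2 rose in MM1S to 2.62 ± 0.665 and 4.49 ± 1.79 FPKM as deposited.

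The small RNAs SCARNA23 and SNORA13 had the largest line differences in size on the deposited scale among the genes called, 5.25 (SE 0.94) and -6.24 (SE 1.01). SCARNA23 stood at 22.9, 0.107 and 0.121 FPKM in H929 with DMSO and at 147, 94.1 and 118 with YKL. SNORA13 stood at 20.8, 211 and 129 with DMSO and at 0.11, 0.137 and 0.127 with YKL. Neither rose above 0.134 FPKM in any MM1S library of 6 h. The values switched between a high level and the library minimum, within the H929 DMSO group too for SCARNA23. Such short RNAs lack poly(A) tails in their mature form, and how a library of 3′ ends counted them was not tested.

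The p53 targets had the most called members of any list. Of 29 measured, 8 were called higher in H929 after rescaling (27.6%, against 0.725% of all genes) and 0 lower. As deposited only PLK3 was called. The median line difference of the list was 0.44 after rescaling and 0.71 as deposited, against 0.03 and 0.24 over all genes, and it was positive in 25 and 28 of the 29. The share of all genes with a positive line difference was not computed. In H929, 14 rose and 0 fell after rescaling, and in MM1S 5 rose and 2 fell. Over all genes, 5.1% rose and 4.19% fell in H929, and 8.25% rose and 7.22% fell in MM1S.

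PLK3, a stress-responsive polo-like kinase, stood at 30.9, 36.2 and 36 FPKM in H929 with DMSO and at 60.7, 78.8 and 80.4 with YKL, a rise of 2.13-fold. The MM1S levels were 4.01, 3.42 and 2.37 with DMSO and at 1.58, 1.99 and 1.51 with YKL. The groups as deposited did not overlap in either line, with YKL higher in H929 and lower in MM1S. The MM1S fall of PLK3 was not called on either scale (limma adjusted p = 0.0823 as deposited and 0.282 after rescaling). The line difference was 1.71 (SE 0.34, limma adjusted p = 0.0323) as deposited and 1.55 (SE 0.27, limma adjusted p = 0.00658) after rescaling, and it was called in 12 of 12 leave-one-out fits after rescaling but in 2 of 12 as deposited. GADD45A, a growth arrest and DNA repair factor, stood at 15.6, 14.8 and 26.6 FPKM in H929 with DMSO and at 33.9, 45.2 and 41.5 with YKL. In MM1S it stood at 15, 16.1 and 15.3 with DMSO and at 11.4, 7.92 and 4.78 with YKL. Here too the groups as deposited were apart in both lines, in opposite directions. The MM1S fall of GADD45A was not called on either scale (limma adjusted p = 0.0697 as deposited and 0.21 after rescaling). The rescaled line difference was 1.75 (SE 0.38, limma adjusted p = 0.0265), called in 5 of 12 leave-one-out fits.

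The sestrins SESN1 and SESN2, stress-induced inhibitors of mTORC1 signalling, differed in their MM1S behaviour. SESN1 stood at 4.15, 4.42 and 4.65 FPKM in H929 with DMSO and at 13, 13.6 and 14.4 with YKL, 3.1-fold higher, and at 22.5 ± 4.26 and 21.1 ± 5.43 in MM1S. SESN2 rose in both lines after rescaling, in H929 from 14.4 ± 2.64 to 42.5 ± 5.33 FPKM and in MM1S from 10.4 ± 1.77 to 13.8 ± 1.62. Its rescaled change was 1.64 in H929 and 0.83 in MM1S, a line difference of 0.82 (SE 0.15, limma adjusted p = 0.0125).

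CDKN1A, the p21 inhibitor of cell cycle CDKs, stood at 69.7, 91.6 and 88.2 FPKM in H929 with DMSO and at 127, 188 and 170 with YKL. MM1S libraries had 5.39, 5.18 and 2.92 with DMSO and at 3.84, 4.08 and 3.71 with YKL. It was higher with YKL in every H929 library and overlapped in MM1S. The rescaled line difference was 0.88 (SE 0.2, limma adjusted p = 0.0377), called in 2 of 12 leave-one-out fits. POLH, a translesion DNA polymerase, went from 5.23 ± 0.562 to 12.7 ± 2.29 FPKM in H929 and from 7.77 ± 0.36 to 6.87 ± 0.962 in MM1S. TNFRSF10B, the TRAIL death receptor DR5, and TP53INP1 had rescaled line differences of 0.95 and 0.76, called in 12 and 3 of 12 leave-one-out fits. The other 21 members had line differences from -0.32 to 0.94 with a median of 0.33. MDM2, the p53 ubiquitin ligase, had -0.06, and BBC3, which encodes the death protein PUMA, had 0.71 (limma adjusted p = 0.281).

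**Figure D3:**
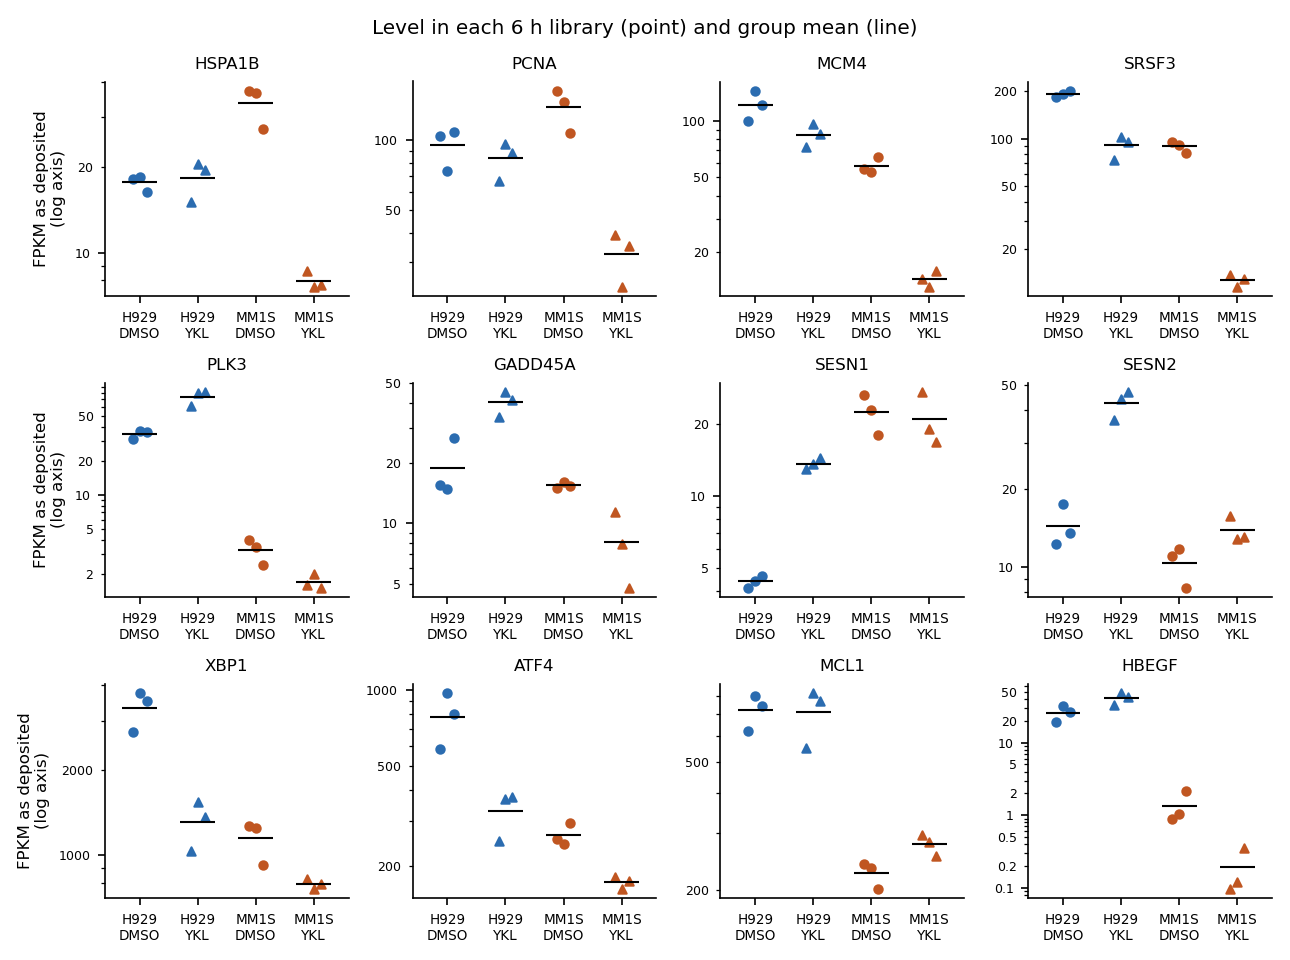
FPKM as deposited (log axis) of 12 genes in each 6 h library, points for libraries and lines for group means. HSPA1B, PCNA and MCM4 drop clearly with YKL in MM1S, PLK3, GADD45A, SESN1 and SESN2 climb in H929, and XBP1 and ATF4 drop most in H929.

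Promoter windows of genes in these groups, from 250 bases before to 50 after the start, were read from RefSeq on build GRCh38.p14 to show the sequence around the start of members that moved together. Windows were read for the p53 targets PLK3, SESN2, CDKN1A and POLH, and those of PLK3 and SESN2 held a searched motif. HSPA1B was added after its values were seen. Capitals mark matches on either strand, to the ATF4 and CEBP composite site TGATGNAA in PLK3, to the CCAAT box in SESN2, and to the CCAAT box and the heat shock element core GAANNTTC in HSPA1B.
PLK3, chr1:44800127-44800426, + strand: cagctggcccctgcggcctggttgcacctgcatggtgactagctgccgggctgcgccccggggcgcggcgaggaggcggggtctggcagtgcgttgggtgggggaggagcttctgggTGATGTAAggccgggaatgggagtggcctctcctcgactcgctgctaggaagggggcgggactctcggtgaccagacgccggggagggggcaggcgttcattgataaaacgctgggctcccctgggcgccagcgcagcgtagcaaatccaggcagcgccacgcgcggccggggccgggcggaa
SESN2, chr1:28259268-28259567, + strand: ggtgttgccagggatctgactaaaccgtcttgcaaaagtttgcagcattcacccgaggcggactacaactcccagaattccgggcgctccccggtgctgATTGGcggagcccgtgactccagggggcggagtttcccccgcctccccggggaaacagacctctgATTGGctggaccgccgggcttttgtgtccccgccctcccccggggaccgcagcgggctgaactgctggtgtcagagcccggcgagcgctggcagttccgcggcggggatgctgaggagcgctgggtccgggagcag
HSPA1B, chr6:31827488-31827787, + strand: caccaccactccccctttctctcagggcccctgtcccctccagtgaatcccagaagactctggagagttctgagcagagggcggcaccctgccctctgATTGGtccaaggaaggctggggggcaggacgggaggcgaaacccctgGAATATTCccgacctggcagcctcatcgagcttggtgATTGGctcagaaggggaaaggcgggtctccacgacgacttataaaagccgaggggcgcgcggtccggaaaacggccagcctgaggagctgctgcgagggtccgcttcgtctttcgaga
In HSPA1B the heat shock element core began 105 bases before the start. The windows of CDKN1A and POLH held none of the 7 motifs. A window was found for 9748 of the 12418 genes tested. The heat shock element core was in 4.53% of them, in 6.94% of the 72 windows of genes called higher in H929, in 2.86% of the 35 windows of genes called lower, and in 25% of the 32 windows of heat shock genes. The composite site was in 1.7%, 1.39% and 2.86% of the same 3 sets, and the CCAAT box in 37.5%, 38.9% and 31.4%. The CCAAT box was in 52.2% of the 23 windows of p53 targets and in 56.8% of the 44 of replication genes. The E2F site TTTGGCGC was in 1.1%, 2.78% and 0% of them, and in 18.2% of the 44 windows of replication genes. The E box CACGTG was in 10.7%, 8.33% and 8.57%, the cAMP response element TGACGTCA in 3.45%, 2.78% and 8.57%, and the AP-1 site TGACTCA in 3.03%, 2.78% and 0%. Over all 27305 windows of the table, the heat shock element core was in 6.87%, the composite site in 3.67%, the CCAAT box in 35.7%, the E2F site in 0.659%, the E box in 7.43%, the cAMP response element in 1.98% and the AP-1 site in 4.92%. Matches of different motifs may overlap. These shares are descriptions, and a match is not a bound site.

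Genes of DNA replication and G1/S fell mainly in MM1S. Of 52 measured, 29 fell in MM1S and 0 rose after rescaling, and 4 fell and 1 rose in H929. Over all genes, 7.22% fell and 8.25% rose in MM1S, and 4.19% fell and 5.1% rose in H929. The line difference was positive in 48 of 52 after rescaling and in 51 as deposited. Its medians were 0.39 and 0.66, against 0.03 and 0.24 over all genes. Members called higher in H929 were 6 after rescaling (11.5%, against 0.725% of all genes) and 0 as deposited. As deposited, 17 had an unadjusted p under 0.05, as did 1283 of the 12418 genes tested.

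PCNA, the sliding clamp of DNA polymerases, stood at 104, 73.5 and 108 FPKM in H929 with DMSO and at 66.5, 96.2 and 88.2 with YKL. In MM1S it stood at 162, 146 and 107 with DMSO and at 39, 23.5 and 35.2 with YKL. The H929 groups overlapped, and in MM1S the level was 0.236-fold with no overlap. The line difference was 1.61 (SE 0.31, limma adjusted p = 0.0125) after rescaling and 1.88 (SE 0.43, limma adjusted p = 0.0632) as deposited. MCM4, a subunit of the replicative helicase, stood at 101, 145 and 123 FPKM in H929 with DMSO and at 72.8, 96.6 and 85.5 with YKL. Its MM1S values were 55.3, 53.3 and 64.7 with DMSO and at 14.2, 13 and 15.7 with YKL. It was lower with YKL in both lines as deposited, 0.69-fold in H929 and 0.247-fold in MM1S, and its rescaled line difference was 1.16 (SE 0.21).

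The helicase subunit MCM6 and the helicase loader CDC6 had rescaled changes of -0.05 and -0.09 in H929 and fell by 1.14 and 1.11 on the log2 scale in MM1S. RRM2, a subunit of ribonucleotide reductase, fell in both lines after rescaling, by 0.39 in H929 and by 1.16 in MM1S. POLD1, the catalytic subunit of DNA polymerase delta, went opposite ways after rescaling, with 0.48 in H929 and -0.52 in MM1S. The line differences of MCM4, MCM6, CDC6, PCNA and RRM2 were called in 12 of 12 leave-one-out fits after rescaling, and that of POLD1 in 9. The 46 members not called had line differences from -0.28 to 1.01 with a median of 0.37. Among them, MCM3 had 0.78 (limma adjusted p = 0.124). E2F1, the transcription factor that induces many of these genes, went from 53.2 ± 8.76 to 37.6 ± 8.75 FPKM in H929 and from 21.5 ± 1.07 to 10.6 ± 2.26 in MM1S. Its line difference of 0.23 after rescaling was not called (limma adjusted p = 0.721). Genes of mitosis did not share this pattern in their median, which was -0.02 over 50 members, of which BIRC5 was called.

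Heat shock chaperones moved in the same direction as the replication genes in MM1S. Of 35 measured, 18 fell and 2 rose in MM1S after rescaling, and in H929 2 fell and 0 rose. Over all genes, 7.22% fell and 8.25% rose in MM1S, and 4.19% fell and 5.1% rose in H929. Called higher in H929 after rescaling were 3 (HSPA1B, DNAJB1 and CHORDC1), which is 8.57%, against 0.725% of all genes. The median line difference was 0.26 after rescaling and 0.51 as deposited, against 0.03 and 0.24 over all genes. HSPA1B stood at 18.2, 18.5 and 16.4 FPKM in H929 with DMSO and at 15.1, 20.5 and 19.6 with YKL. In MM1S it stood at 37, 36.6 and 27.3 with DMSO and at 8.65, 7.61 and 7.71 with YKL. The H929 groups overlapped and the MM1S groups stood far apart. Its line difference was 1.98 (SE 0.34, limma adjusted p = 0.0232) as deposited and 1.72 (SE 0.2, limma adjusted p = 0.000255) after rescaling, called in 7 and 12 of 12 leave-one-out fits. HSPA1B has a near-identical copy, HSPA1A, and how reads were split between them is not given in the sources used here.

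DNAJB1, the HSP40 partner of HSP70, stood at 149, 260 and 211 FPKM in H929 with DMSO and at 93.7, 158 and 160 with YKL, and at 279, 273 and 315 in MM1S with DMSO and 56.9, 55.7 and 46 with YKL. The groups overlapped in H929 and not in MM1S, where the level was 0.183-fold. CHORDC1, an HSP90 co-chaperone, was lower with YKL in both lines as deposited, 0.606-fold in H929 and 0.206-fold in MM1S. The rescaled line differences were 1.57 (SE 0.27) and 1.03 (SE 0.24), called in 12 and 1 of 12 leave-one-out fits. The 32 members not called ran from -0.8 to 1.12. HSF1, the activator of heat shock genes, had -0.8 (limma adjusted p = 0.0859), and HSPA8, the constitutive HSP70, fell in both lines, by 1.61 in H929 and by 1.19 in MM1S.

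Splicing factors of the SR and hnRNP families had 3 of 33 members called higher in H929 after rescaling (9.09%, against 0.725% of all genes). As deposited, 0 were called and 6 had an unadjusted p under 0.05, as did 1283 of the 12418 genes tested. After rescaling 10 fell and 0 rose in H929 (4.19% and 5.1% of all genes), while 16 fell and 1 rose in MM1S (7.22% and 8.25%). The 1 that rose was CLK3, a kinase of SR proteins named after its values were seen, by 0.7 in MM1S (limma adjusted p = 0.00289). SRSF3, an SR protein that also regulates its own splicing, stood at 183, 192 and 199 FPKM in H929 with DMSO and at 73.7, 103 and 94.8 with YKL. The level in MM1S was 95.7, 91.5 and 80.6 with DMSO and at 13.7, 11.6 and 13 with YKL. It was lower with YKL in every library of both lines, 0.473-fold in H929 and 0.143-fold in MM1S, and its rescaled line difference was 1.37 (SE 0.14, limma adjusted p = 4.04e-05). HNRNPD, an RNA-binding protein of AU-rich transcripts, fell after rescaling by 0.6 in H929 and by 1.58 in MM1S. HNRNPAB had 0.09 in H929 and fell by 0.99 in MM1S, a line difference called in 2 of 12 leave-one-out fits after rescaling. SRSF1 fell by 0.88 and 0.92, a line difference of 0.04.

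NCL, the nucleolar protein nucleolin, and the small nucleolar RNA host gene SNHG3 were also called higher in H929 after rescaling. NCL stood at 941 ± 111 and 681 ± 149 FPKM in H929 and at 414 ± 17.1 and 161 ± 10 in MM1S. SNHG3 stood at 81 ± 18.4 and 41.5 ± 12.1 in H929 and at 43.3 ± 6.58 and 7.14 ± 1.73 in MM1S. Their rescaled line differences were 0.6 (SE 0.12) and 1.25 (SE 0.2). They were the only called members of their lists. Over all genes 4.19% fell in H929 and 7.22% in MM1S after rescaling. In the ribosome biogenesis list 19 of 45 genes fell in each line after rescaling, and the median line difference was 0.05. Of 18 host genes, 10 fell in H929 and 8 in MM1S, and the median line difference was -0.22.

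**Figure D4:**
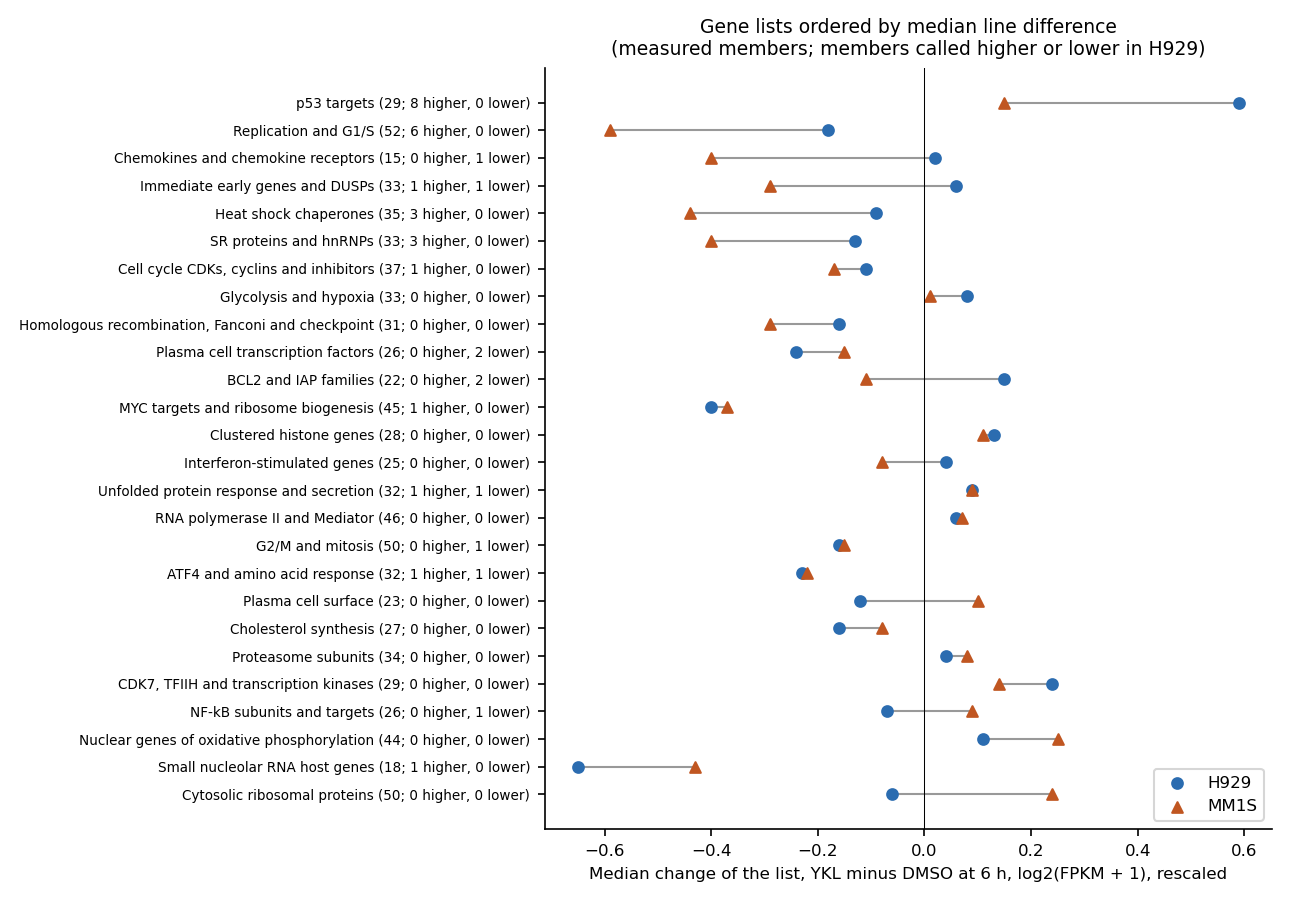
Median rescaled change at 6 h of each list with at least 15 measured members, H929 as circles and MM1S as triangles, ordered by the median of the members' line differences. The replication list has its MM1S median at -0.59 and its H929 median at -0.18, and the p53 target list has its H929 median at 0.59 and its MM1S median at 0.15.

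After rescaling, 7 genes were called in opposite directions in the lines. HBEGF, a growth factor of the EGF family, stood at 19.4, 31.9 and 26 FPKM in H929 with DMSO and at 32.9, 47.8 and 41.9 with YKL, and at 0.881, 1.04 and 2.14 in MM1S with DMSO and 0.0979, 0.122 and 0.353 with YKL. The groups did not overlap in either line, and the MM1S YKL levels lay near the library minima. Its line difference was 1.63 (SE 0.31). WHSC1, which encodes the histone methyltransferase NSD2, stood at 64.6, 95.1 and 84.1 FPKM in H929 with DMSO and at 83, 110 and 110 with YKL, and at 24.3, 23 and 21.3 in MM1S with DMSO and 13.3, 11.5 and 12.7 with YKL. The H929 groups overlapped and the MM1S groups did not. Its rescaled changes were 0.5 and -0.38, a line difference of 0.88 (SE 0.13, limma adjusted p = 0.00156). SRP54, a subunit of the signal recognition particle, had 0.48 and -0.38, and the kinase gene MAP3K3 had 0.46 and -0.43. The line differences of SRP54 and MAP3K3 were called in 12 and 4 of 12 leave-one-out fits after rescaling. In the other direction, TMEM167B had -0.62 in H929 and 0.48 in MM1S, and SLC35A2, the Golgi transporter of UDP-galactose, had -0.53 and 0.46. Those of TMEM167B and SLC35A2 were called in 11 and 6 of the 12 fits. As deposited, none of the 7 was called for the line difference. The FPKM of TMEM167B and SLC35A2 in MM1S were 1.03-fold and 1.01-fold as deposited, so their rise there exists only relative to the library scale.

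Among genes called lower in H929 after rescaling were XBP1 and ATF4, described here with the lists that hold them. XBP1, the transcription factor that maintains secretion, stood at 2740, 3750 and 3510 FPKM in H929 with DMSO and at 1040, 1540 and 1370 with YKL. In MM1S it stood at 1270, 1250 and 925 with DMSO and at 825, 763 and 790 with YKL. It was lower with YKL in both lines as deposited with no overlap, 0.394-fold in H929 and 0.689-fold in MM1S. After rescaling it fell by 1.15 in H929 and had -0.05 in MM1S, a line difference of -1.1 (SE 0.16, limma adjusted p = 0.00156), against -0.83 (SE 0.44, limma adjusted p = 0.53) as deposited. ATF4, the activator of amino acid stress genes, stood at 782 ± 195 and 331 ± 69.9 FPKM in H929 and at 264 ± 28.1 and 172 ± 8.92 in MM1S. Its line difference was -0.89 after rescaling, called in 2 of 12 leave-one-out fits. The unfolded protein response list had a median line difference of 0.26 as deposited and -0.01 after rescaling, with 25 and 15 of 32 members positive. The ATF4 and amino acid list had 0.22 and -0.05, also with 25 and 15 of 32 positive. After rescaling the first list had SRP54 called higher and XBP1 lower in H929, and the other had SESN2 higher and ATF4 lower.

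MCL1, the anti-apoptotic BCL2 relative on which myeloma cells rely, stood at 620, 799 and 741 FPKM in H929 with DMSO and at 550, 814 and 771 with YKL. In the MM1S libraries it was 240, 234 and 202 with DMSO and at 297, 281 and 254 with YKL. The MM1S YKL libraries were all above the DMSO libraries, and the H929 groups overlapped. The rescaled line difference was -0.6 (SE 0.12, limma adjusted p = 0.0125), and that as deposited was -0.33 (SE 0.37, limma adjusted p = 0.831). BIRC5, which encodes survivin, had a rescaled line difference of -0.61, called in 2 of 12 leave-one-out fits. CCL3, the chemokine MIP-1 alpha, fell in both lines after rescaling, by 2.01 in H929 and by 1.35 in MM1S, with 337 ± 36.1 to 73.1 ± 18.3 FPKM in H929 and 3390 ± 357 to 956 ± 87.8 in MM1S. JUND, an AP-1 subunit, was higher in H929, with a rescaled change of 0.13 there and -0.5 in MM1S. Its line difference was called in 2 of 12 leave-one-out fits after rescaling.

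The targeted kinase itself did not differ detectably in its response. CDK7 stood at 9.47 ± 0.692 and 6.45 ± 1.18 FPKM in H929 and at 5.09 ± 2.19 and 4.27 ± 2.07 in MM1S, a line difference of -0.26 (SE 0.46) as deposited and -0.44 (SE 0.41) after rescaling. Inhibition of a kinase need not change its RNA, so this does not check the treatment. MYC was expressed in MM1S, at 34.7 ± 13.9 and 14.4 ± 4.91 FPKM, and stood at 0.416 ± 0.25 and 0.189 ± 0.0758 in H929, where a fall could hardly be seen. Its line difference was 0.94 (SE 0.47) as deposited and 0.6 (SE 0.36) after rescaling, not called. CCND2 had 0.59 (SE 0.41) and 0.31 (SE 0.35), not called, with an MM1S level of 79.6 ± 6.3 and 39 ± 2.31 FPKM. IRF4, the plasma cell factor, had -0.15 (SE 0.39) and -0.41 (SE 0.18), not called.

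Of 50 ribosomal protein genes measured, 0 were called in limma's test on either scale, with 0 and 10 at an unadjusted p under 0.05 as deposited and after rescaling. Their median line difference was -0.01 as deposited and -0.28 after rescaling, where 3 of 50 were positive. Over all genes the median was 0.24 and 0.03. Of all 12418 genes tested, 1283 had an unadjusted p under 0.05 as deposited and 1686 after rescaling, to be read beside the unadjusted counts here. RPS29, a ribosomal protein gene outside the list and named after its values were seen, was called after rescaling, with a line difference of -0.69 (SE 0.16, limma adjusted p = 0.0409), and was not called as deposited (-0.41, limma adjusted p = 0.801). The 29 genes of CDK7, TFIIH and the transcription kinases had 0 called, with 2 and 6 at an unadjusted p under 0.05 and medians of 0.14 and -0.12. The 46 genes of RNA polymerase II and Mediator had 0 called as well, with 4 and 7 unadjusted. The 34 proteasome subunits had 0 called and 0 unadjusted on both scales. Nuclear genes of oxidative phosphorylation (44), glycolysis and hypoxia (33), interferon-stimulated genes (25), clustered histones (28), cholesterol synthesis (27), homologous recombination and Fanconi genes (31) and plasma cell surface genes (23) had 0 called on either scale, with 1 to 6 unadjusted after rescaling. Direction flips between the scales in the medians of several of these, so no list direction is read from them.

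Some genes outside the lists, chosen after their values were seen, are described next. CD70, a TNF family ligand, stood at 7.05, 4 and 9.97 FPKM in H929 with DMSO and at 18.7, 20.3 and 20.2 with YKL, and at 281, 339 and 250 in MM1S with DMSO and 190, 144 and 158 with YKL. The groups as deposited were apart in both lines in opposite directions, and the rescaled line difference was 1.87 (SE 0.37). The MM1S fall of CD70 was not called on either scale (limma adjusted p = 0.126 as deposited and 0.423 after rescaling). The chromatin protein gene HMGB2 had a rescaled change of 0.48 in H929 and fell by 1.22 in MM1S, which gave a line difference of 1.7. FUBP1 fell in both lines, by 1.31 in H929 and by 2.46 in MM1S. Among genes lower in H929, IFRD1 stood at 15.9, 17 and 18.8 FPKM in H929 with DMSO and at 7.08, 8.75 and 9.1 with YKL, with a line difference of -0.99.

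The same genes were read in the 24 h libraries, which enter no 6 h contrast but share the variance estimate, the filter and the rescaling reference of the fit. With the 12 libraries of 6 h fitted alone, 59 genes were called at 6 h after rescaling and 52 of the 141 were kept, and 11 were called as deposited and 7 of the 21 were kept. Over all genes, 1.36% were called for the 24 h line difference as deposited and 12.3% after rescaling. Of the 141 genes called at 6 h after rescaling, 54 (38.3%) were called at 24 h with the same sign and 1 with the opposite sign. The sign was the same in 112 of 141 (79.4%), against 59.4% of all genes. Of the 21 genes called as deposited, 2 (CDCA7 and SNORA13) were called again with the same sign, 1 (SCARNA23) with the opposite one, and 15 had the same sign. The median over all genes at 24 h was -0.34 as deposited, opposite in sign to 6 h. The log2 median-of-ratios factors at 24 h were 0.77, 0.94 and 0.69 (H929 DMSO) and 0.10, -0.59 and 0.37 (H929 YKL). They were -1.18, -0.32 and -1.47 (MM1S DMSO) and -1.37, -1.28 and -1.17 (MM1S YKL). The spike-in SD of MM1S DMSO replicate 1 at 24 h was 0.58. The part of this uneven scale in the deposited 24 h values was not tested.

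The 24 h values differed by group. WHSC1 grew from 0.88 at 6 h to 2.23 at 24 h and IFRD1 from -0.99 to -2.45, both rescaled, though the change between times was not tested. XBP1 held -1.08 and ATF4 -1.03. HSPA1B had 1.15 and HBEGF 1.35, and CD70 had 2.04. Of the 8 p53 targets, CDKN1A (0.68), SESN2 (0.72) and TP53INP1 (0.95) were called again, while PLK3 had 0.03, POLH 0.08, GADD45A 0.47, SESN1 -0.45 and TNFRSF10B -0.36, not called. Of the 6 replication genes, MCM6 (0.84), CDC6 (0.52), POLD1 (0.94) and RRM2 (0.45) were called again, with rescaled 24 h changes below 0 in both lines. PCNA (0.92, limma adjusted p = 0.0582) and MCM4 (0.47, limma adjusted p = 0.15) were not called. SRSF3 had 0.25, HNRNPD 0.07 and DNAJB1 -0.24, not called.

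**Figure D5:**
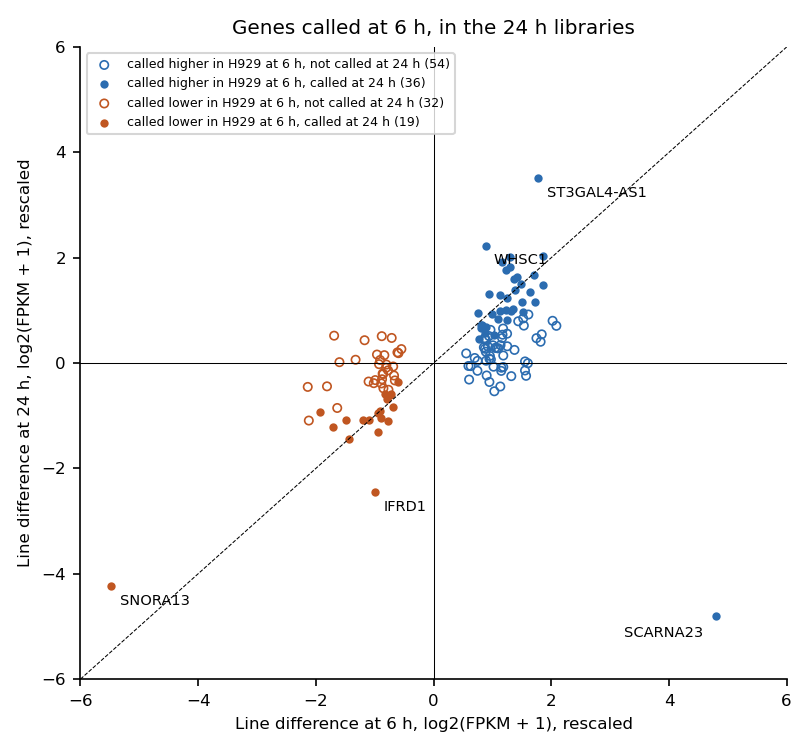
Rescaled line difference at 6 h (x axis) and 24 h (y axis) of the 141 genes called at 6 h, filled where also called at 24 h, with the dashed line of equal values. Most points lie in the quadrants of equal sign, and SCARNA23 is called with the opposite sign.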

How the data were processed

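RNA was measured in 24 libraries of 3′ ends of polyadenylated transcripts (QuantSeq, per the labels' protocols) from H929 and MM1S cells, of which the 12 of 6 h enter this comparison. Reads were processed with HISAT2 and Cuffnorm on hg19, per the submitters' processing notes, with versions and settings not given in the sources used here. The authors deposited 1 table per library with a column called Expression, read here as FPKM from the named tool. The tables held 26341 entries, 92 of them ERCC spike-ins and 26249 genes. FPKM divides by gene length, which does not suit 3′ end reads but is the same in all libraries for a gene, so levels were not compared between genes. No counts could be recovered, so sequencing depth stays unknown and counting intervals are not given. Identical library pairs numbered 0, as did unused per-sample columns. Whether the authors scaled to the spike-ins is not given in the sources used here.

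A gene was tested if 3 or more libraries reached 1 FPKM (12418 genes). The two-sided test was limma-trend on log2(FPKM + 1), from limma 3.58.1 under R 4.3.3, in 1 fit of 24 libraries with 8 group means. This scale understates the change of low genes. P-values were Benjamini-Hochberg adjusted over all genes of a comparison, at 0.05. The reference for rescaling was the 6014 genes whose geometric mean reached 5 FPKM. The test was checked on simulated data. Errors are SE for log2 values and SD for FPKM, and fold values are ratios of mean deposited FPKM. Overlap is stated on FPKM as deposited.

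The comparison, the lists of genes and the naming rule were chosen with earlier results of these data known. The rule named the 10 largest differences of each sign among genes called on both scales that reached 5 FPKM in a group (12 higher ones and 0 lower ones did; symbols starting with LOC, SNOR, MIR, SNAR, RNU, RNY, IGH, IGK, IGL or RP11 were left out, which drops SNORA13 and keeps SCARNA23), genes called in opposite directions in the lines, up to 3 called members of each list with the smallest deposited p (called on either scale), and CDK7, MYC, IRF4, MCL1, E2F1, CDKN1A, CCND2, XBP1 and ATF4. Other genes are named because a count was small or their list or their values drew attention after the values were seen. The results of a few genes are not reported here. Promoter windows were matched by symbol or, for 697 genes, by a synonym held by 1 window. Alternatives were other pseudocounts (0.5 and 5), other filters, the 12 libraries alone, no variance trend, a replicate block and single libraries left out. Those on the rescaled values were mostly added after the data were seen.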

Additional observations from a re-analysis of the deposited data

Results flagged for a closer look

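A difference between the lines in the response at 6 h, passed by the interaction test on the deposited and the rescaled scale, marked 10 named genes. The values on the deposited log2 scale were 5.25 for SCARNA23, 2.36 for KRCC1, 2.24 for FAM89A, 2.18 for PDCL3, 1.98 for HSPA1B, 1.83 for CBLN2, 1.82 for ARL6IP6, 1.77 for PVRIG, 1.71 for PLK3 and 1.67 for CDCA7. SCARNA23 was high in 1 of 3 H929 DMSO libraries, at 22.9 FPKM. CBLN2, PVRIG and CDCA7 were under 1 FPKM in both H929 groups. Of 12 fits that each left out 1 library, the deposited call was kept in 5 for SCARNA23, 4 each for KRCC1, FAM89A and PDCL3, 7 for HSPA1B, 8 for CBLN2, 2 each for ARL6IP6 and PLK3, 0 for PVRIG and 10 for CDCA7. The rescaled call was kept in 3 for KRCC1, 5 for PDCL3, 4 for ARL6IP6 and 12 for each of the other 7. No test for a library far from its group was run on groups of 3.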

How the results depend on the processing

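As deposited, the 21 called genes (17 higher in H929, 4 lower) became 141 (90 and 51) after rescaling. They became 7 (6 and 1) at 5 FPKM in 3 libraries, 4 (3 and 1) with no filter, 11 (9 and 2) in the 12 libraries of 6 h alone, 12 (9 and 3) at a pseudocount of 0.5, 85 (75 and 10) at a pseudocount of 5, and 8 (5 and 3) with a replicate block. Leaving out 1 library gave 0 to 72 in all, 0 to 68 higher and 0 to 4 lower. After rescaling, the 141 became 76 (49 and 27) with no filter, 59 (40 and 19) in the 12 libraries alone, and 47 (35 and 12) with a replicate block. Lower calls became 77 at a pseudocount of 5. Leaving out 1 library gave 62 to 136 in all, 43 to 90 higher and 19 to 46 lower. Calls repeated at 24 h were 2 as deposited, 54 after rescaling, 1 and 19 with a replicate block, and 0 to 7 and 32 to 72 without 1 library. The cause was not tested. The line difference of the library scale ran from 0.18 to 0.44 without 1 library. Of 902 values of the 41 named genes, 730 kept direction and side of the threshold, 106 lost the call, 65 gained it and 1 reversed (IRF4, from -0.15 to 0.0165 without H929 YKL replicate 1, with -0.25 as the lowest value without 1 library).

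The replicate block is not a paired design from the labels. Samples with the same number correlated at -0.116 to 0.026 at 6 h in their deviations, and not every sample correlated best with its own. These values cannot settle whether samples of the same number were handled together. A single scale, 3 libraries a group and unknown depth limit what could be called, and genes under 1 FPKM in a line could not show a fall there. The rescaled alternatives other than the replicate block and the fit without MM1S YKL replicate 2 were added after the data were seen.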
